A study of Homo sapiens with 4 samples.

Results

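DNA replication in DU145 cells, a human prostate cancer cell line, was followed here through 48 genes that build the replication machinery or supply its deoxynucleotides. The 48 genes were chosen by name as core subunits of each step, by a rule that uses no measured value but was set with earlier results of these data known: 9 origin licensing genes, 12 replicative helicase genes, 2 genes of the DBF4-dependent kinase, 9 polymerase and primase genes, 6 clamp and clamp loader genes, 2 genes of Okazaki fragment maturation, 3 subunits of replication protein A and 5 deoxynucleotide enzymes. All 48 were among the 20474 genes listed in all 4 expression tables, and all 48 passed the filter on low values that left 14942 genes for testing.

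The 4 RNA-seq libraries came from cells of the same line transfected for 48 h with siRNA at 75 nM. PTBP1 siRNA replicate 1 and replicate 2 were given siPTBP1#1 and siPTBP1#2, a pair of separately numbered siRNAs against the splicing repressor PTBP1, so the replicates of this group also differ in reagent. The DNMT3B-L siRNA library was aimed at the DNMT3B-L isoform of a DNA methyltransferase, and the control siRNA library received a negative control siRNA. The title of the study names PTBP1, DNMT3B splicing, the protein RALY and radioresistance, while the culture labels mention no irradiation. With 1 library for DNMT3B-L siRNA and 1 for control siRNA, the only spread between libraries of a group is that between the PTBP1 siRNA libraries.

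Replication starts when the origin recognition complex, CDC6 and CDT1 load the ring of MCM2 to MCM7 onto DNA, a step that geminin (GMNN) blocks once S phase has begun. The kinase CDC7 with its partner DBF4 then helps to turn the loaded ring, CDC45 and the GINS complex into the active helicase, after which primase, polymerases alpha, delta and epsilon, the clamp PCNA and its loader copy the strands. Ribonucleotide reductase, thymidylate synthase, thymidine kinase and the dUTPase set the supply of DNA precursors and keep uracil out of DNA. Many of these genes are known targets of E2F transcription factors, and their mRNA peaks around the entry into S phase.

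The libraries held 24088975 and 23163964 counted read pairs with PTBP1 siRNA and 22332245 with DNMT3B-L siRNA, against 22511596 with control siRNA. Levels are given in CPM, the read pairs of a gene scaled to the total of its library, and each member had at least 253 read pairs in every library. PTBP1 stood at 267.8 and 135.0 CPM in the PTBP1 siRNA libraries, against 927.7 CPM in the control siRNA library, and its paralog PTBP2, which PTBP1 represses, stood at 60.9 and 70.9 CPM against 8.26 CPM. DNMT3B had 5.46 CPM with DNMT3B-L siRNA, against 9.77 CPM with control siRNA, a gene level that does not separate the L isoform. The keratin gene KRT8 had 1264 CPM with PTBP1 siRNA replicate 1, 656 CPM with replicate 2 and 1209 CPM with DNMT3B-L siRNA, against 1444 CPM with control siRNA, and the 5 epithelial markers summed to 1713, 942 and 1734 CPM, against 2007 CPM. KRT19 had 149.2, 108.2 and 247.1 CPM, against 279.9 CPM, and CDH1 had 20.0, 6.43 and 12.5 CPM, against 19.9 CPM. KRT18 had 275.8, 169.2 and 253.8 CPM, against 259.0 CPM, and EPCAM had 3.69, 2.24 and 11.6 CPM, against 3.73 CPM. Replicate 2 was thus the lowest library for all 5 epithelial markers, while EPCAM alone was above control siRNA with DNMT3B-L siRNA, and their part in the results below was not tested. Of 10 markers of immune, endothelial and stromal cells, 6 were listed in all tables, with a summed level between 20.0 and 31.1 CPM, most of it the collagen gene COL1A1 at 27.0 and 18.9 CPM with PTBP1 siRNA and 18.4 CPM with DNMT3B-L siRNA, against 16.1 CPM with control siRNA.

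The promoters of the members were searched for E2F words. Many of these genes are known E2F targets, so the choice by name was not independent of this feature. RefSeq promoters of 300 bases (250 before and 50 after the start, GRCh38.p14) were matched by symbol for 42 of the 48 members. An E2F word (TTTCCCGC, TTTGGCGC, TTTCGCGC or TTTGCCGC, on either strand, overlaps allowed) stood in 18 of these 42 promoters, or 42.9%. It stood in 4.79% of 14852 promoters of expressed genes and in 3.31% of all 35116 promoters of that length. Member promoters were limited to a single promoter per symbol, which was not done for the others. A CCAAT box stood in 52.4% of member promoters, against 33.9% of promoters of expressed genes, and a CHR word (TTTGAA or TTCGAA), an element of genes that peak later in the cycle, stood in 7.14% against 11.6%. The following windows give the word in capitals in 1 member of each of 6 complexes or pathways, read 5′ to 3′ on the strand of the gene, to show the same core in unrelated subunits. GCGGGAAA and GCGCGAAA are TTTCCCGC and TTTCGCGC read from the opposite strand, and in MCM6 GCGCGAAA overlaps TTTGGCGC.
CDT1, licensing factor, chr16:88803738-88803777, + strand: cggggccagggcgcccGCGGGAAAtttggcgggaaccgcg
MCM6, helicase ring, chr2:135876506-135876545, - strand: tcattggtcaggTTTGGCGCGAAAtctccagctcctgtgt
POLA2, polymerase alpha, chr11:65261893-65261932, + strand: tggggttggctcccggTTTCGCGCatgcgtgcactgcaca
PCNA, sliding clamp, chr20:5126658-5126697, - strand: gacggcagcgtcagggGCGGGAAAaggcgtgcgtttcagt
RFC3, clamp loader, chr13:33818078-33818117, + strand: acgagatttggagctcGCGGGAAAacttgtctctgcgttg
TYMS, thymidylate synthase, chr18:657598-657637, + strand: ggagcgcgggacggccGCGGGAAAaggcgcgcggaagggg

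Members with and without the word had similar ratios to control siRNA. The median log2 ratio to control siRNA of the 18 members with an E2F word and the 24 without was 0.17 and 0.23 with PTBP1 siRNA replicate 1, -0.09 and 0.03 with replicate 2, and 0.35 and 0.33 with DNMT3B-L siRNA. These ratios are on the log2(CPM + 1) scale, as are all ratios below, and a match to the letters was not taken as a bound site.

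As a set, the 48 members lay above the control siRNA library in the DNMT3B-L siRNA library and in the library of PTBP1 siRNA replicate 1, and not in that of replicate 2. Their summed level was 5052 CPM with PTBP1 siRNA replicate 1, 4315 CPM with replicate 2 and 5466 CPM with DNMT3B-L siRNA, against 4478 CPM with control siRNA. With PTBP1 siRNA replicate 1, 42 of 48 members were above control siRNA (50.2% of all genes tested were), and the median log2 ratio of the members was 0.20, against 0.0012 over all genes tested. With replicate 2, 22 of 48 were above (50.4% of all genes), with a median of -0.04 against 0.0039. With DNMT3B-L siRNA, 42 of 48 were above (52.8% of all genes), with a median of 0.34 against 0.026. All 3 comparisons use the same control siRNA library, so an odd value there moves them together. In bulk RNA, more cells in S phase and more of these mRNAs per cell cannot be told apart.

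**Figure D1:**
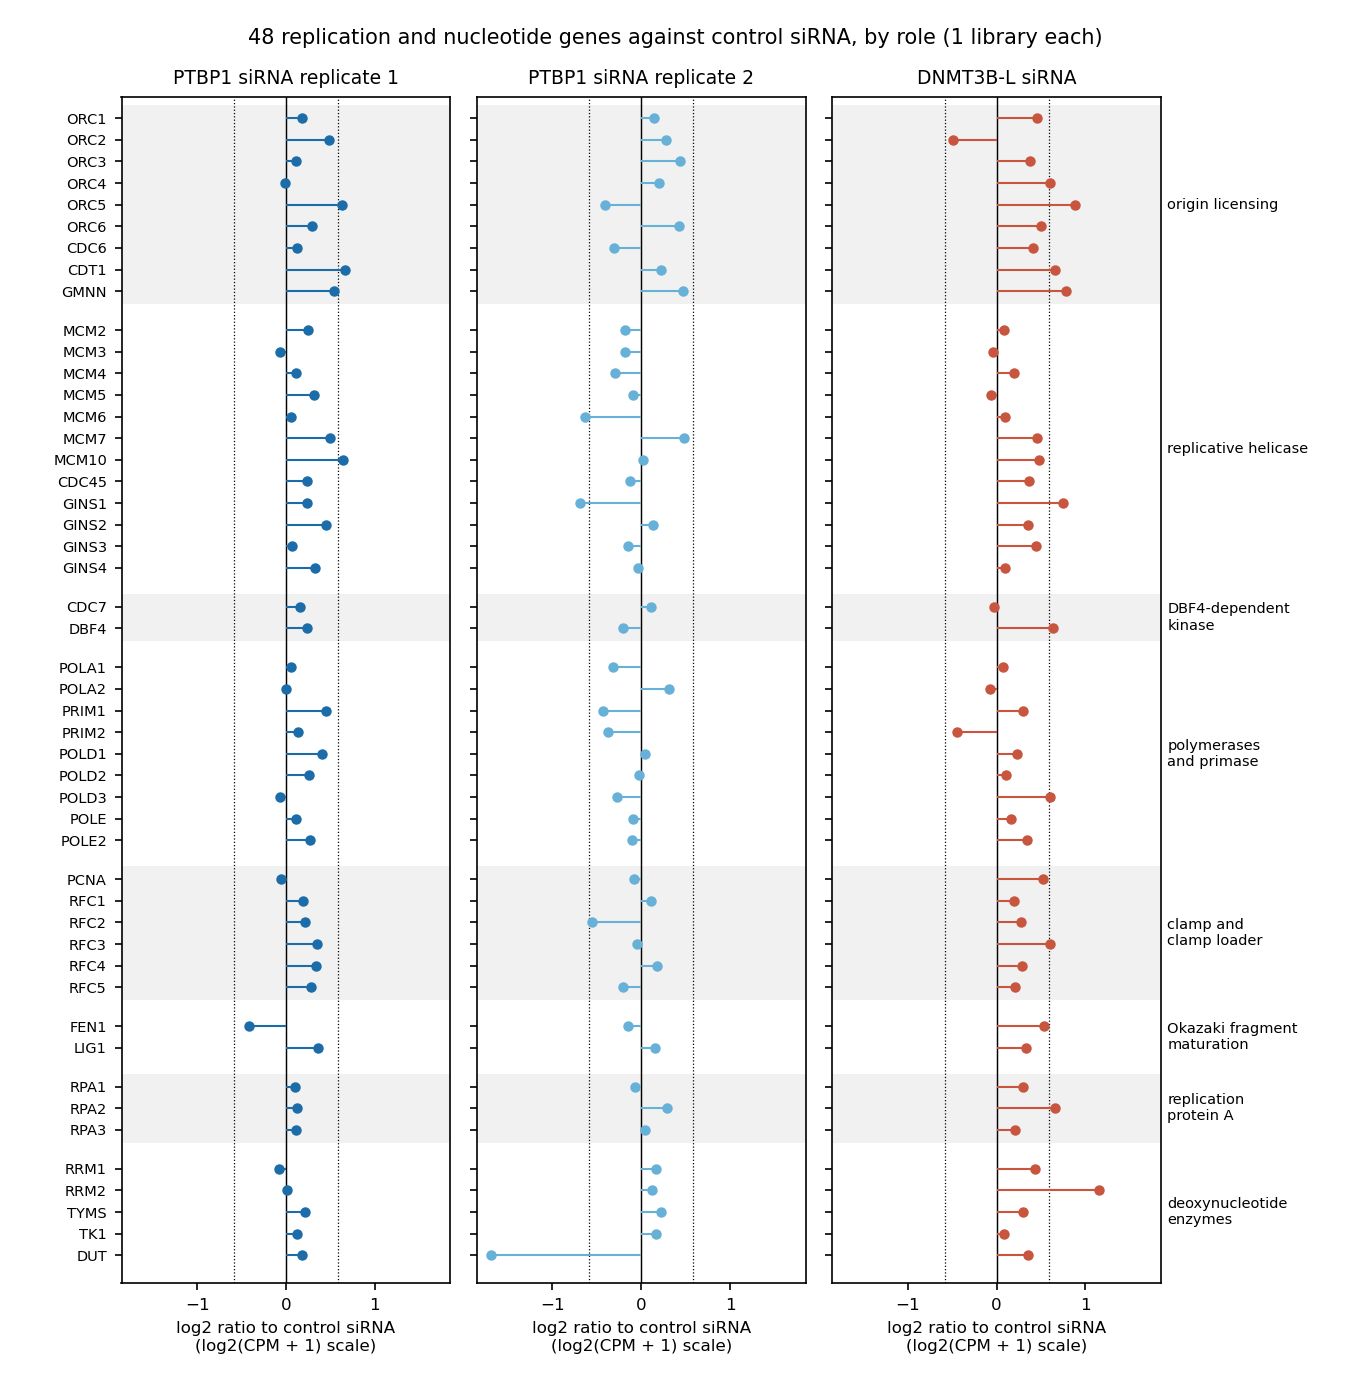
Log2 ratio to the control siRNA library, on the log2(CPM + 1) scale, of each of the 48 members in 3 siRNA libraries, grouped by role from top to bottom; dots are single libraries and dotted lines mark 1.5-fold. With DNMT3B-L siRNA 10 members reach 1.5-fold higher, with RRM2 farthest at 1.15, and with PTBP1 siRNA replicate 2 DUT lies far to the left at -1.68.

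At 1.5-fold, only the DNMT3B-L siRNA library held a share of higher members well above that of all genes. With DNMT3B-L siRNA, 10 of 48 members were at least 1.5-fold higher than with control siRNA, or 20.8% against 4.6% of all genes tested (4.36% of genes averaging 5 CPM or more), and 0 were at least 1.5-fold lower (7.3% of all genes). The 10 were ORC4, ORC5, CDT1, GMNN, GINS1, DBF4, POLD3, RFC3, RPA2 and RRM2, which span 7 of the 8 roles. With PTBP1 siRNA replicate 1, 3 members (ORC5, CDT1 and MCM10) were at least 1.5-fold higher (6.25%, against 4.52% of all genes) and 0 lower (7.36% of all genes). With replicate 2, 0 members were at least 1.5-fold higher (4.08% of all genes) and 3 (MCM6, GINS1 and DUT) were lower (6.25%, against 8.19% of all genes), both shares near or under those of all genes. Among the 4 libraries, DNMT3B-L siRNA held the highest level of 28 members (58.3%, against 29.9% of all genes tested). PTBP1 siRNA replicate 1 held that of 16 (33.3%, against 25.6%), replicate 2 of 3 (6.25%, against 24.9%) and control siRNA of 1 (MCM3, 2.08%, against 19.6%). Replicate 2 held the lowest level of 24 members (50%, against 26.4% of all genes). Control siRNA held that of 17 (35.4%, against 22%), DNMT3B-L siRNA of 4 (8.33%, against 24.9%) and replicate 1 of 3 (6.25%, against 26.7%).

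None of these member values passed the test across all genes. limma on log2(CPM + 1), with Benjamini-Hochberg adjustment, called 0 of 48 members in the comparison of PTBP1 siRNA with control siRNA (0.00669% of all genes tested were called), 0 of 48 in that of DNMT3B-L siRNA with control siRNA (0% of all genes) and 0 of 48 in that of PTBP1 siRNA with DNMT3B-L siRNA (0.00669% of all genes). The single gene called, in both comparisons that involve PTBP1 siRNA, was PTBP2. At an unadjusted p under 0.05, limma found 0, 1 and 5 members in the 3 comparisons, against 2.65%, 3.06% and 5.33% of all genes, and edgeR and DESeq2 on the recovered read pairs also called 0 members in each. The values that follow are therefore differences between libraries, with counting intervals where given, and not tested effects of the siRNAs.

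**Figure D2:**
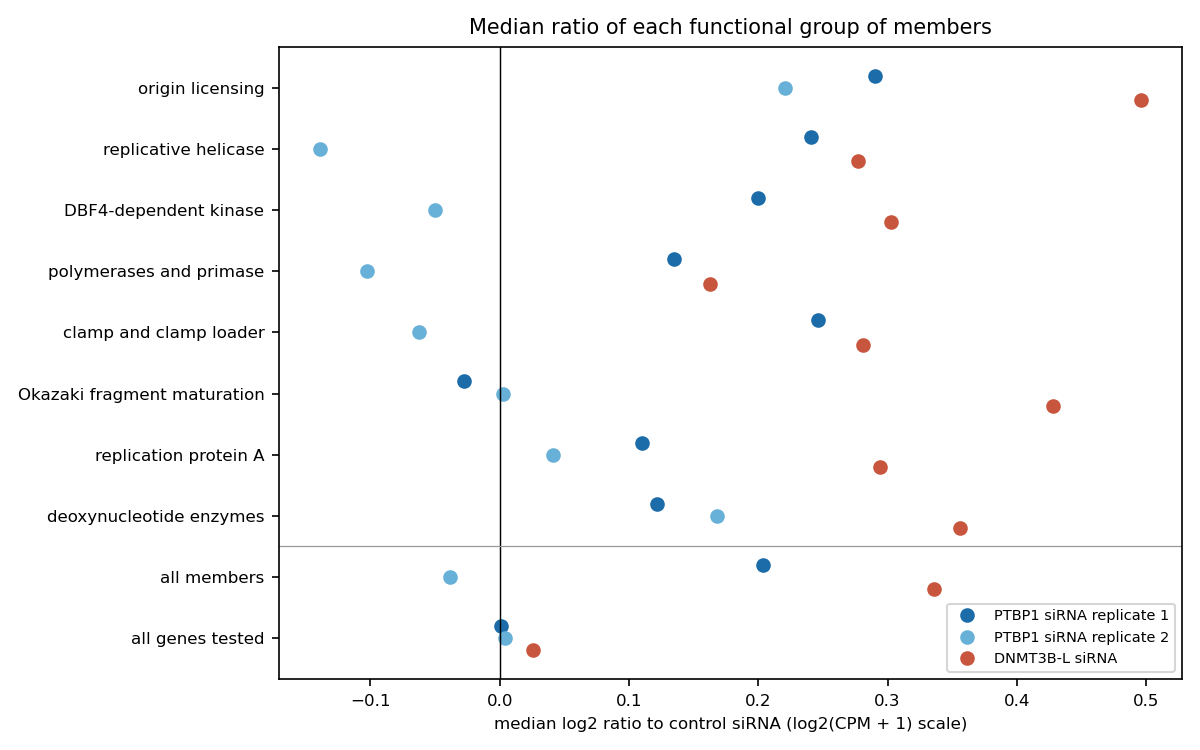
Median log2 ratio to the control siRNA library, on the log2(CPM + 1) scale, of the members in each role, of all 48 members and of all 14942 genes tested, for 3 siRNA libraries shown as coloured dots. Origin licensing genes lie right of 0 in all 3 libraries (0.29, 0.22 and 0.50), while the helicase genes of PTBP1 siRNA replicate 2 lie left of 0 at -0.14.

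Origin licensing genes had the highest medians of the 8 roles with DNMT3B-L siRNA and with both PTBP1 siRNAs. The median log2 ratio of the 9 genes was 0.29 with PTBP1 siRNA replicate 1, 0.22 with replicate 2 and 0.50 with DNMT3B-L siRNA, and 8, 7 and 8 of the 9 were above control siRNA. GMNN, the inhibitor of CDT1, had 62.9 and 60.2 CPM with PTBP1 siRNA and 74.6 CPM with DNMT3B-L siRNA, against 43.1 CPM with control siRNA. Its 95% counting interval with control siRNA (40.4 to 45.9 CPM) lay under those of all 3 other libraries, of which the lowest began at 57.1 CPM. The limma log2 fold change of GMNN was 0.50 ± 0.31 (SE) for PTBP1 siRNA and 0.78 ± 0.36 for DNMT3B-L siRNA against control siRNA (adjusted p = 1.000 and 0.998). CDT1, which brings the MCM ring to the origin, had 104.9 and 77.0 CPM with PTBP1 siRNA and 104.4 CPM with DNMT3B-L siRNA, against 65.9 CPM with control siRNA. The licensing factor and its inhibitor were thus both lowest in the control siRNA library.

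The 6 subunits of the origin recognition complex did not move as a block. ORC5, an ATPase subunit, had 24.3 and 11.3 CPM with PTBP1 siRNA and 29.2 CPM with DNMT3B-L siRNA, against 15.4 CPM with control siRNA. It was 1.58-fold higher in replicate 1 and 1.90-fold higher with DNMT3B-L siRNA, and stood at 0.736 of control siRNA in replicate 2, so the PTBP1 siRNA libraries lay on opposite sides of control siRNA. ORC2, a core subunit, had 45.1 and 38.9 CPM with PTBP1 siRNA and 22.5 CPM with DNMT3B-L siRNA, against 31.9 CPM with control siRNA, and was the lowest-ranked member of the DNMT3B-L siRNA library at a log2 ratio of -0.49. ORC4 had 17.1 and 20.1 CPM with PTBP1 siRNA and 26.9 CPM with DNMT3B-L siRNA, against 17.3 CPM with control siRNA. ORC1, ORC3 and ORC6 lay above control siRNA by log2 ratios of 0.12 to 0.29 with replicate 1, 0.14 to 0.43 with replicate 2 and 0.37 to 0.50 with DNMT3B-L siRNA. CDC6, the ATPase that joins the complex on DNA, had 147.1 and 109.4 CPM with PTBP1 siRNA and 180.4 CPM with DNMT3B-L siRNA, against 135.2 CPM with control siRNA.

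Among the helicase genes, MCM7 and the rest of the MCM ring behaved differently. MCM7 had 292.8 and 291.2 CPM with PTBP1 siRNA and 285.1 CPM with DNMT3B-L siRNA, against 208.0 CPM with control siRNA, log2 ratios of 0.49, 0.48 and 0.45. The limma estimate for PTBP1 siRNA against control siRNA was 0.49 ± 0.29 (SE, adjusted p = 1.000). The other ring subunits, MCM2 to MCM6, stayed between -0.06 and 0.31 with replicate 1, between -0.63 and -0.09 with replicate 2 and between -0.06 and 0.19 with DNMT3B-L siRNA. Per kilobase of annotated exon, MCM3 was the highest of the 6 in every library. It had 89.8 and 82.8 CPM per kilobase with PTBP1 siRNA and 91.3 with DNMT3B-L siRNA, against 93.8 with control siRNA. On that scale MCM7 came after MCM3 and MCM4 with replicate 1 and DNMT3B-L siRNA (66.8 and 65.0 CPM per kilobase) and after MCM3 alone with replicate 2 (66.4), while with control siRNA (47.4) it was level with MCM6 (47.5) and only MCM5 (42.4) was lower. Annotated exons include rarely used ones and span 3650 bases in MCM3 and 7338 in MCM5, so the order between genes depends on annotated length. Part of the exons of MCM7 lie opposite exons of AP4M1, and no source used here says whether reads were counted by strand.

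MCM6 and GINS1 were the helicase genes farthest below control siRNA in PTBP1 siRNA replicate 2. MCM6 had 203.5 and 125.9 CPM with PTBP1 siRNA and 209.3 CPM with DNMT3B-L siRNA, against 195.7 CPM with control siRNA. GINS1, a subunit of the GINS complex that bridges the ring and polymerase epsilon, had 48.9 and 25.3 CPM with PTBP1 siRNA and 70.3 CPM with DNMT3B-L siRNA, against 41.4 CPM with control siRNA. It was thus 1.70-fold higher with DNMT3B-L siRNA and at 0.611 of control siRNA in replicate 2. GINS2, GINS3 and GINS4, its partners in the complex, had log2 ratios of 0.06 to 0.45 with replicate 1, -0.15 to 0.14 with replicate 2 and 0.09 to 0.44 with DNMT3B-L siRNA. MCM10, which helps to start unwinding, had 75.5 and 48.9 CPM with PTBP1 siRNA and 67.2 CPM with DNMT3B-L siRNA, against 48.1 CPM with control siRNA, so replicate 2 and control siRNA had overlapping counting intervals. CDC45 had 62.5 and 48.4 CPM with PTBP1 siRNA and 68.3 CPM with DNMT3B-L siRNA, against 52.8 CPM with control siRNA.

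The regulatory subunit DBF4 and its kinase CDC7 differed in the DNMT3B-L siRNA library. DBF4 had 22.4 and 16.2 CPM with PTBP1 siRNA and 29.9 CPM with DNMT3B-L siRNA, against 18.8 CPM with control siRNA, a log2 ratio of 0.64 with DNMT3B-L siRNA. CDC7 had 39.9 and 38.4 CPM with PTBP1 siRNA and 34.8 CPM with DNMT3B-L siRNA, against 35.6 CPM with control siRNA.

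The polymerase and primase genes had the lowest median of the 8 roles with DNMT3B-L siRNA, 0.16, with 0.14 and -0.10 for PTBP1 siRNA replicate 1 and replicate 2. POLD3, an accessory subunit of polymerase delta, had 39.5 and 34.2 CPM with PTBP1 siRNA and 63.4 CPM with DNMT3B-L siRNA, against 41.4 CPM with control siRNA, and stood out from POLD1 and POLD2, which were at 1.17-fold and 1.07-fold of control siRNA with DNMT3B-L siRNA. PRIM1, the catalytic subunit of primase, had 24.5 and 12.9 CPM with PTBP1 siRNA and 22.0 CPM with DNMT3B-L siRNA, against 17.7 CPM with control siRNA. PRIM2, its partner, had 33.7 and 23.5 CPM with PTBP1 siRNA and 22.3 CPM with DNMT3B-L siRNA, against 30.7 CPM with control siRNA. The primase subunits therefore lay on opposite sides of control siRNA with DNMT3B-L siRNA, at log2 ratios of 0.30 and -0.44. POLA2 was above control siRNA in replicate 2 at 0.31 and within 0.08 of it in the other libraries, and POLE and POLE2, of the leading-strand polymerase, lay between -0.10 and 0.34.

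The clamp and the flap nuclease stood above control siRNA in the DNMT3B-L siRNA library, and the flap nuclease stood below it in both PTBP1 siRNA libraries. PCNA, the sliding clamp, had 119.0 and 117.3 CPM with PTBP1 siRNA and 179.4 CPM with DNMT3B-L siRNA, against 124.2 CPM with control siRNA. Its counting intervals in both PTBP1 siRNA libraries overlapped that of control siRNA. FEN1, which trims Okazaki fragments, had 108.2 and 130.8 CPM with PTBP1 siRNA and 209.8 CPM with DNMT3B-L siRNA, against 145.0 CPM with control siRNA, and was the member farthest below control siRNA in replicate 1 at a log2 ratio of -0.42. Some FEN1 exons lie opposite exons of TMEM258 and some overlap exons of FADS2 on the same strand, so part of its counts may belong to those genes. LIG1, the ligase that seals the fragments, was at 1.30-fold and 1.12-fold of control siRNA with PTBP1 siRNA and at 1.26-fold with DNMT3B-L siRNA. In the clamp loader, RFC3 had 43.6 and 33.1 CPM with PTBP1 siRNA and 52.2 CPM with DNMT3B-L siRNA, against 34.1 CPM with control siRNA, and RFC2 had 71.5 and 41.5 CPM with PTBP1 siRNA and 74.5 CPM with DNMT3B-L siRNA, against 61.5 CPM with control siRNA. RPA2, a subunit of the single-strand binding protein that kinases modify under replication stress, had 58.7 and 65.9 CPM with PTBP1 siRNA and 84.9 CPM with DNMT3B-L siRNA, against 53.6 CPM with control siRNA, while RPA1 and RPA3 were at 1.23-fold and 1.16-fold of control siRNA with DNMT3B-L siRNA.

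**Figure D3:**
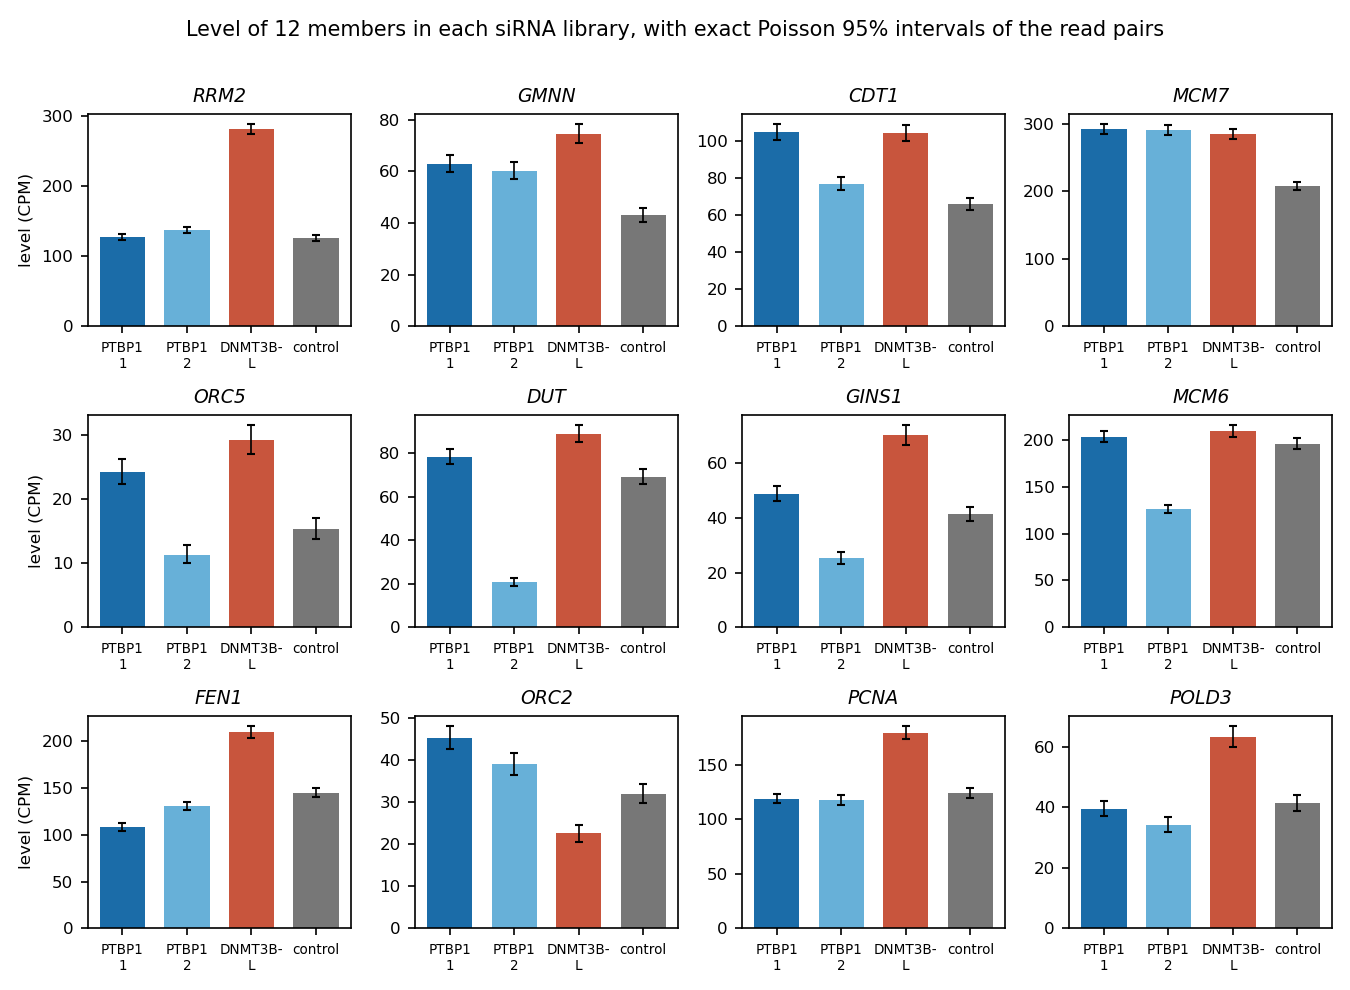
Level in CPM of 12 members in each siRNA library (bars), from PTBP1 siRNA replicate 1 and replicate 2 and DNMT3B-L siRNA on the left to control siRNA on the right; error bars are exact Poisson 95% intervals of the read pairs and cover counting error only. RRM2 reaches 280.8 CPM with DNMT3B-L siRNA, against 125.6 CPM with control siRNA, and DUT stands at 20.8 CPM in PTBP1 siRNA replicate 2, against 69.1 CPM with control siRNA.

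The member farthest above control siRNA in any library was RRM2 (ENSG00000171848), the regulated subunit of ribonucleotide reductase, which makes deoxynucleotides from ribonucleotides. RRM2 had 127.1 and 136.9 CPM with PTBP1 siRNA and 280.8 CPM with DNMT3B-L siRNA, against 125.6 CPM with control siRNA. The DNMT3B-L siRNA library was 2.24-fold of control siRNA, and its counting interval of 273.9 to 287.8 CPM lay far above the other 3 libraries, which ranged from 125.6 to 136.9 CPM. The limma log2 fold change of RRM2 was 1.15 ± 0.35 (SE) for DNMT3B-L siRNA against control siRNA (unadjusted p = 0.00563, adjusted p = 0.998) and -1.08 ± 0.30 for PTBP1 siRNA against DNMT3B-L siRNA (unadjusted p = 0.0033, adjusted p = 0.572). RRM1, the large subunit of the same enzyme, had 105.1 and 124.5 CPM with PTBP1 siRNA and 149.9 CPM with DNMT3B-L siRNA, against 110.7 CPM with control siRNA. TYMS and TK1, which make thymidine nucleotides by synthesis and by salvage, varied little: TYMS had 35.7, 35.9 and 38.0 CPM, against 30.7 CPM with control siRNA, and TK1 had 318.2, 329.0 and 310.2 CPM, against 292.2 CPM.

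The member farthest below control siRNA was DUT (ENSG00000128951), and in 1 library only. This dUTPase, which removes dUTP and supplies dUMP to TYMS, had 78.3 and 20.8 CPM with PTBP1 siRNA and 88.8 CPM with DNMT3B-L siRNA, against 69.1 CPM with control siRNA. Replicate 2 stood at 0.301 of control siRNA, while replicate 1 stood at 1.13-fold of it, a 3.76-fold difference between the PTBP1 siRNA libraries. The limma log2 fold change of DUT for PTBP1 siRNA against control siRNA, -0.75 ± 0.55 (SE, adjusted p = 1.000), therefore describes neither library, and its sign turned to 0.18 without replicate 2.

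The PTBP1 siRNA libraries differed from each other across the replication genes. In replicate 1, 7 members (ORC5, MCM6, MCM10, GINS1, PRIM1, RFC2 and DUT) were at least 1.5-fold higher than in replicate 2 (14.6%, against 9.18% of all genes tested), and 0 were at least 1.5-fold lower (7.92% of all genes). At any size, 38 of 48 members were higher in replicate 1 (79.2%, against 50.7% of all genes), with a median log2 ratio of 0.21 against 0.0073 over all genes. All 12 helicase genes and all 6 clamp and clamp loader genes were higher in replicate 1. Of the 5 deoxynucleotide enzymes, 4 were higher in replicate 2, DUT being the exception. For TYMS and TK1, however, the counting intervals of the PTBP1 siRNA libraries overlapped. They also overlapped for some helicase and clamp genes, among them MCM7 and PCNA. PTBP1 itself was 1.98-fold higher in replicate 1, so the library with less PTBP1 mRNA was the one with the lower replication genes. How much of this difference came from the level of PTBP1 was not tested.

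Of the members below control siRNA in PTBP1 siRNA replicate 2, 6 shared a word in their 3′ UTR. Across 10499 genes that averaged at least 5 CPM and had a 3′ UTR of 50 bases or more in GENCODE 29, each of 13968 words of 7 bases was ranked by how low the genes holding it were in 1 library relative to the other 3, with allowance for UTR length and GC content. The lowest word was AAGATCA for replicate 2 (13.5% of genes held it), CTGCACA for replicate 1 (15.6%) and AACAACA for DNMT3B-L siRNA (13.7%). The words were chosen on these values, members included, so what follows is a description. AAGATCA stood in the 3′ UTR of ORC5, GINS1, DBF4, RFC2, RPA1 and DUT, 6 of 48 members, a share near the 13.5% of the genes searched. All 6 were below control siRNA in replicate 2, with log2 ratios from -1.68 (DUT) to -0.07 (RPA1). Their median log2 ratio was -0.48 against 0.03 for the other 42 members. Over all genes the medians in that library were -0.17 with the word and 0.04 without it. The sites in DUT and GINS1, the lowest pair of these members, and in ORC5, the licensing gene among them, are shown with 10 bases on each side and the word in capitals, on the transcript strand.
DUT: gatcaaggaaAAGATCAttaaaaaaaa
GINS1: ttcccatcccAAGATCAcaattttttt
ORC5: actgttttaaAAGATCAtagttgcaaa

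In DNMT3B-L siRNA the word AACAACA stood in the 3′ UTR of ORC2, ORC4, MCM6, GINS1, CDC7, PRIM2 and TK1. Their median log2 ratio was 0.09, against 0.36 for the other 41 members, and they included ORC2 and PRIM2, the lowest of all 48 in that library, but also GINS1 and ORC4, which were at least 1.5-fold higher. The sites in the lowest pair are given in the same form.
ORC2: tcttttcttgAACAACAtgcaggtgag
PRIM2: ggtttgaggtAACAACAgagactttca

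The 5 members with CTGCACA (ORC4, CDT1, GINS2, GINS4 and RPA1) were not low in PTBP1 siRNA replicate 1, with a median of 0.32 against 0.20 for the other 43. The siRNA sequences were not used here, and whether any of these words matches one was not tested. MCM6 and PRIM1, also low in replicate 2, did not hold AAGATCA in the 3′ UTR searched.

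**Figure D4:**
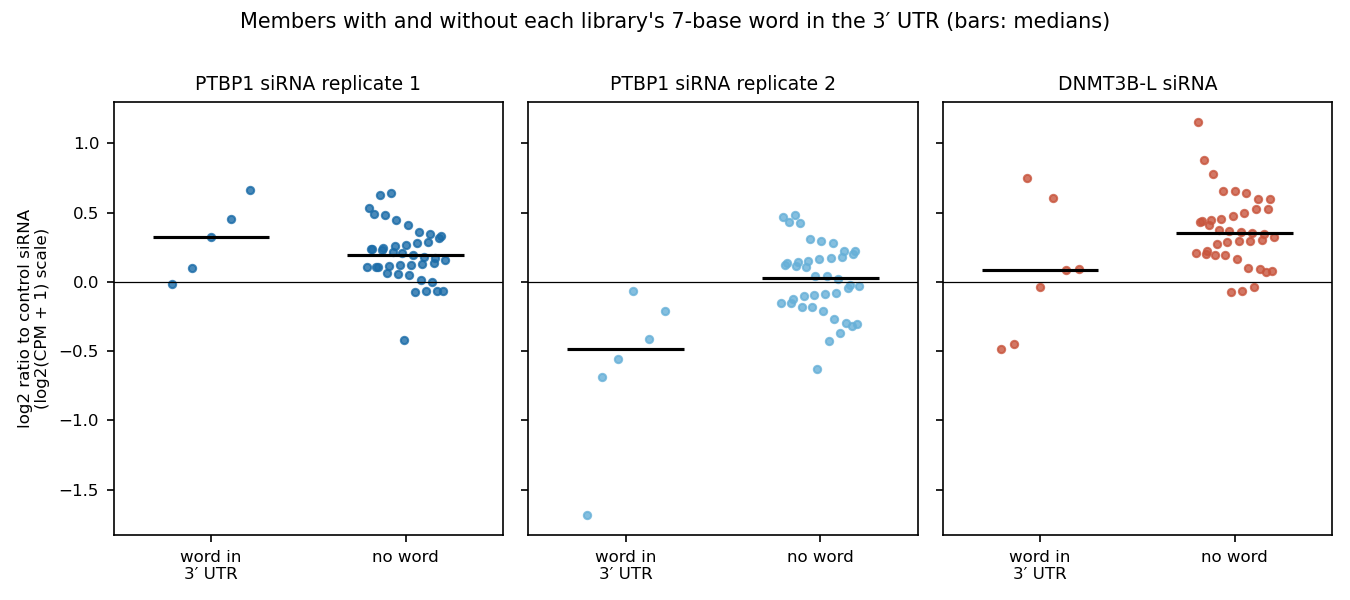
Log2 ratio to the control siRNA library of members that hold, and members that do not hold, the 7-base word ranked lowest for that library in their 3′ UTR, in 3 panels for 3 siRNA libraries; dots are genes and bars are medians. In PTBP1 siRNA replicate 2 all 6 members with the word lie under 0, with a median of -0.48 against 0.03 for the other 42.

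Setting the PTBP1 siRNA libraries against the DNMT3B-L siRNA library asks how the knockdowns differ without using the control siRNA library. Most members lay lower with PTBP1 siRNA, with a median log2 fold change of -0.21 against -0.03 over all genes tested, and 10 of 48 were higher. This rested largely on replicate 2, since without it the median was -0.07 with 18 of 48 higher, and without replicate 1 it was -0.34 with 7 higher. At an unadjusted p under 0.05 stood RRM2, FEN1 (-0.81 ± 0.31 SE, adjusted p = 0.833), GINS1 (-0.98 ± 0.39, adjusted p = 0.853), POLD3 (-0.77 ± 0.32, adjusted p = 0.887) and, in the other direction, ORC2 (0.87 ± 0.32, adjusted p = 0.832), all by limma over 14942 genes. For RRM2, FEN1, POLD3 and ORC2 both PTBP1 siRNA libraries lay on the same side of the DNMT3B-L siRNA library, and so they did for GINS1, at 48.9 and 25.3 CPM against 70.3 CPM. The GINS1 estimate was -0.52 without replicate 2 and -1.44 without replicate 1, and GINS1 missed an unadjusted p of 0.05 without the filter, with quantile normalization and in DESeq2, where POLD3 missed it too. DUT had a larger difference, -1.11, but an SE of 0.55, since its PTBP1 siRNA libraries lay apart.

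**Figure D5:**
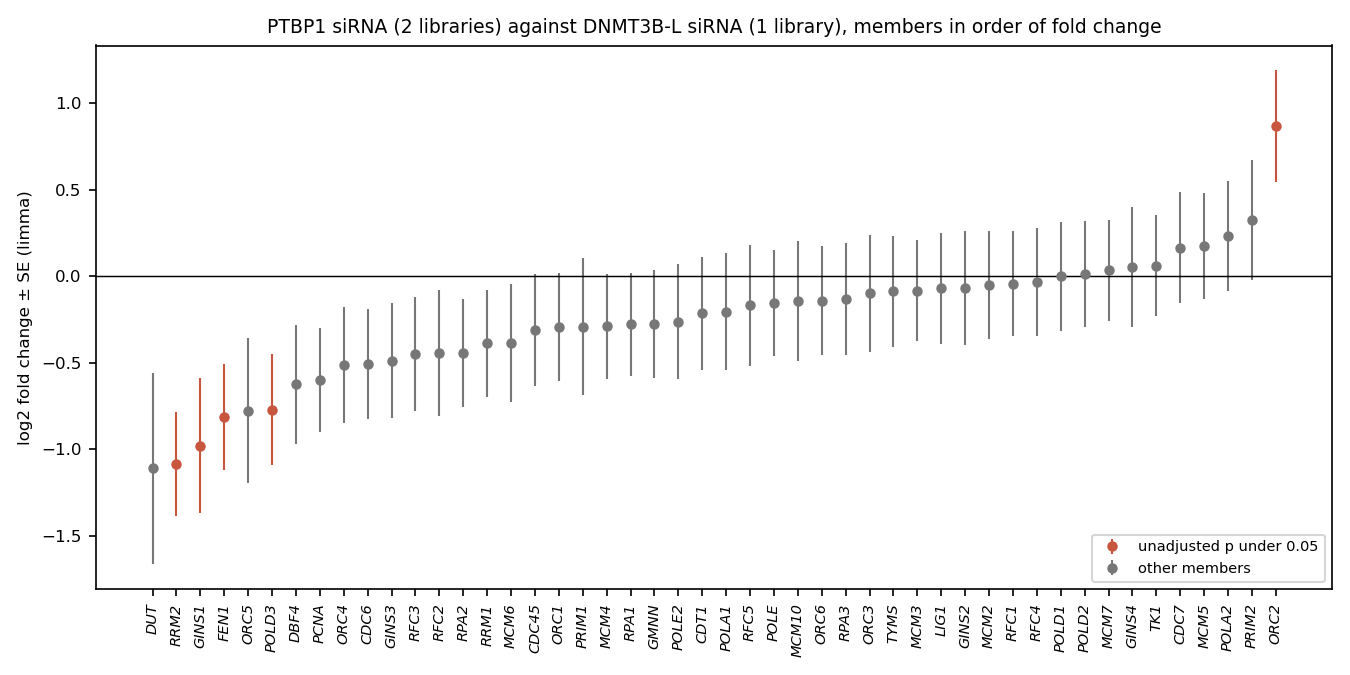
limma log2 fold change, with its SE, of PTBP1 siRNA (2 libraries) against DNMT3B-L siRNA (1 library) for each of the 48 members, in order of size; coloured points have an unadjusted p under 0.05. RRM2 at -1.08 and GINS1 at -0.98 lie at the low end and ORC2 at 0.87 at the high end, and 10 of 48 members lie above 0.

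Other genes of replication and nucleotide metabolism, were described from a list of 45 chosen by name. With PTBP1 siRNA replicate 1, replicate 2 and DNMT3B-L siRNA, 32, 26 and 36 of the 45 were above control siRNA, with median log2 ratios of 0.21, 0.05 and 0.26, against 0.0012, 0.0039 and 0.026 over all genes. At least 1.5-fold higher were 2, 0 and 4 of them (4.44%, 0% and 8.89%, against 4.52%, 4.08% and 4.6% of all genes), and 2, 0 and 1 were at least 1.5-fold lower (4.44%, 0% and 2.22%, against 7.36%, 8.19% and 7.3%), so 1.5-fold changes were near or under the background except for those higher with DNMT3B-L siRNA. TOP1, the topoisomerase that relaxes DNA ahead of the fork, had 126.6 and 78.5 CPM with PTBP1 siRNA and 105.2 CPM with DNMT3B-L siRNA, against 70.4 CPM with control siRNA. SAMHD1, which breaks down deoxynucleotides, had 16.4 and 32.7 CPM with PTBP1 siRNA and 35.4 CPM with DNMT3B-L siRNA, against 40.6 CPM with control siRNA. RNASEH2A, a subunit of the nuclease that removes ribonucleotides from DNA, had 60.4, 39.2 and 50.1 CPM, against 37.3 CPM, and the mitochondrial thymidine kinase TK2 had 12.2, 20.8 and 28.8 CPM, against 19.9 CPM.

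Of 31 measured regulators of the G1/S transition, 5, 5 and 3 were at least 1.5-fold higher than control siRNA in the same 3 libraries (16.1%, 16.1% and 9.68%, against 4.52%, 4.08% and 4.6% of all genes tested) and 3, 2 and 1 were lower (9.68%, 6.45% and 3.23%, against 7.36%, 8.19% and 7.3%). CDC25A, the phosphatase that activates CDK2, had 110.8 and 79.5 CPM with PTBP1 siRNA and 94.9 CPM with DNMT3B-L siRNA, against 42.2 CPM with control siRNA. CCND1, the D-type cyclin that starts the passage through G1, had 419.2 and 184.2 CPM with PTBP1 siRNA and 327.6 CPM with DNMT3B-L siRNA, against 184.2 CPM with control siRNA, so its high libraries were those in which 42 of 48 members were above control siRNA. E2F5 had 19.6, 14.6 and 11.4 CPM, against 8.17 CPM, and MYBL2, a transcription factor of the S and G2 phases, had 295.2, 240.8 and 97.3 CPM, against 219.1 CPM. MYBL2 thus stood lowest in the library where the members stood highest.

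Mitotic genes gave medians of 0.04, 0.10 and 0.23 over 26 genes in the same 3 libraries, with 15, 16 and 22 above control siRNA (57.7%, 61.5% and 84.6%, against 50.2%, 50.4% and 52.8% of all genes). CCNB1, the mitotic cyclin, had 243.6 and 245.7 CPM with PTBP1 siRNA and 388.3 CPM with DNMT3B-L siRNA, against 235.8 CPM with control siRNA. AURKA, a spindle kinase, had 156.6, 201.0 and 289.8 CPM, against 169.2 CPM. In DNMT3B-L siRNA the mitotic genes were therefore also mostly above control siRNA, whereas MKI67, a marker of cycling cells, had 296.6 and 405.0 CPM with PTBP1 siRNA and 437.9 CPM with DNMT3B-L siRNA, against 445.9 CPM with control siRNA. BIRC5, an inhibitor of apoptosis that acts in mitosis, had 199.1, 176.3 and 227.8 CPM, against 290.7 CPM. The share of cells in each phase was not measured.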

How the data were processed

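RNA-seq of 4 DU145 libraries was analysed from the CPM tables deposited by the authors, 1 per library, whose upstream tools per the labels were bcl2fastq 2.19.1, HISAT2 2.1.0 and HTSeq 0.6.1 on hg19/GRCh37. Per file, 99.0% to 99.2% of values were whole multiples of 1 read pair (tolerance 0.001), and the rest were 0.5 of a pair, taken as 0. The members and lists were chosen with earlier results of these data known. Genes that reached a CPM of 1 in any library were tested with limma 3.58.1 (R 4.3.3, trend option) on log2(CPM + 1), fitted by condition over all 4 libraries, two-sided, with Benjamini-Hochberg adjustment at 0.05. The PTBP1 siRNA libraries gave the single residual degree of freedom (1), to which the prior added 11.5; lone libraries were assumed to vary like those. No label names separate cultures, so p-values measure only the spread between these libraries, which also differ in siRNA. edgeR 4.0.16 and DESeq2 1.42.0 on the recovered pairs called 0, 0 and 1 and 2, 1 and 4 genes in the 3 comparisons. Ratios to control siRNA set 1 library against 1 and carry no p; folds of control siRNA are plain CPM ratios. Counting intervals are exact Poisson at 95%. All tools were run on simulated data with large planted changes and little spread between libraries, which does not measure their power here.

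Named genes were the members at least 1.5-fold changed in any library, the 5 largest rises and falls in each, the member with the smallest limma p of each role and comparison, the targeted genes, and up to 4 changed genes of each list; single partners of these were added as context after their values were seen. Exons of 22 of the 48 members overlap those of another gene in GENCODE 29 (18 on the opposite strand), and no source used here says whether counting used strand. Promoters came from RefSeq (GRCh38.p14) and 3′ UTRs from the longest in GENCODE 29 protein-coding transcripts (GRCh38), matched by name. GINS4, MCM4, MCM5, POLD3, RPA2 and RPA3 had no promoter match. Some items are not reported here.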

Additional observations from a re-analysis of the deposited data

How the results depend on the processing

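Alternatives were no filter, a minimum average of 5 CPM, pseudocounts of 0.1 and 5, quantile normalization, TMM factors, centring on the median of all genes tested, a 2-fold threshold, edgeR, DESeq2 and leaving out either PTBP1 siRNA library. The count of members called was 0 in all 3 comparisons under all 8 alternatives that give a test. Without a PTBP1 siRNA library no degree of freedom is left, so only fold changes were computed. Median log2 ratios of the members ranged over the alternatives from 0.189 to 0.209 with PTBP1 siRNA replicate 1. They ranged from -0.042 to 0.0323 with replicate 2 and from 0.301 to 0.356 with DNMT3B-L siRNA. All moved by less than the SD of the medians of the PTBP1 siRNA libraries, 0.171, a wide yardstick for such values. The replicate 2 median, -0.0381 in the main setting, turned positive only without the members that hold AAGATCA. Members at least 1.5-fold higher with DNMT3B-L siRNA numbered 10. The count was 7 with quantile normalization, 7 with TMM factors and 7 with centring on the median of all genes tested. It was 6 with a pseudocount of 5, which shrinks low genes by construction, and 1 (RRM2) at 2-fold. At 2-fold, PTBP1 siRNA replicate 1 had 0 higher instead of 3 and replicate 2 had 1 lower (DUT) instead of 3. Restricted to members without AAGATCA, an alternative chosen after seeing the data, replicate 2 had 1 lower (MCM6). Of 12 fold changes of single members, 11 kept their sign in every alternative. Some alternatives could not change a sign: the filters leave fold changes as they are. Those of DNMT3B-L siRNA against control siRNA use neither PTBP1 siRNA library. The fold change of DUT for PTBP1 siRNA against control siRNA was -1.68 without replicate 1 and 0.18, thus reversed, without replicate 2. It was -0.48 by edgeR and by DESeq2, against -0.75 by limma. Adjusted p-values of RRM2 for PTBP1 siRNA against DNMT3B-L siRNA ranged from 0.52 to 0.97. No paired analysis was possible because only PTBP1 siRNA carries replicate numbers. Counting intervals overlapped those of control siRNA for 17 and 20 members with PTBP1 siRNA and 8 with DNMT3B-L siRNA. The ratios of those members were not separated from counting error. The share over all genes was not computed, so these counts cannot be read as a trait of the members. A single control siRNA library gives no spread of its own.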
